A study of Mus musculus with 8 samples.

Results

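The 10 genes described here carry costimulatory signals between T cells and the cells that present antigen to them. They are Cd40lg, Cd40, Tnfsf11, Tnfrsf4, Tnfsf4, Tnfrsf9, Tnfsf9, Tnfrsf18, Tnfrsf25 and Icos, taken by symbol from the 19024 gene symbols of 8 single-cell RNA matrices. All had a row in all 8 matrices except Cd40lg, which had a row in 7. It had none in wild-type library 1, where its level was taken as 0. Each of the 8 libraries came from a mouse tumor grown from MB49, a urothelial cancer line, which was injected under the skin and is not of host origin. In 4 libraries (deleted 3, 4, 7 and 8) the C57BL/6 hosts were UbcreERT2/+;Atg7f/f, so that tamoxifen removed Atg7, which encodes an enzyme needed to form autophagosomes, from host tissues. In the other 4 libraries (wild type 1, 2, 5 and 6) the hosts were UbcreERT2/+;Atg7+/+. Hosts of both genotypes carried the ubiquitous, tamoxifen-activated Cre recombinase and received tamoxifen on 4 days. MB49 cells followed 1 week afterwards, with 2 tumors in each mouse, which grew for 3 weeks. Ages of the hosts are not given in the labels. Nothing in the labels says which tumors came from the same mouse, so libraries may share an animal and p-values may be too small.

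Signals of this group follow the first contact between a T cell receptor and its antigen. CD40 ligand, the product of Cd40lg, appears on activated helper T cells and engages CD40 on dendritic cells, macrophages and B cells, which then raise costimulatory ligands and cytokines. The receptors OX40 (Tnfrsf4), 4-1BB (Tnfrsf9), GITR (Tnfrsf18) and DR3 (Tnfrsf25) sit mainly on T cells and natural killer (NK) cells, and several are high on regulatory T cells. They recruit TRAF adaptors and activate NF-kB, which favours survival and cytokine production. The ligands OX40L (Tnfsf4) and 4-1BBL (Tnfsf9) are displayed by antigen-presenting cells. RANK ligand (Tnfsf11) is made by activated T cells and some stromal cells. ICOS (Icos) belongs to the CD28 family and is grouped here because it acts beside these receptors. The series title asks whether autophagy lets tumors with many mutations grow by restraining T cells, so levels in tumors of deleted hosts were set against those of wild-type hosts.

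Levels are UMIs (unique molecules) per 10000 UMIs of a cell, as the mean over a library's cells of that class. Libraries held from 4371773 UMIs (deleted 7) to 59235799 UMIs (wild type 6), and 28473 cells were kept. Cells were clustered without the 10 genes and named from marker lists, and a class is called "like" its cell type for this reason. T-like cells were divided by UMIs of Foxp3, Cd4, Cd8a or Cd8b1, and gamma delta receptor genes, none of them a member. Atg7 itself, a check of the labels, stood at 0.101, 0.150, 0.0709 and 0.310 UMIs per 10000 in non-malignant cells of deleted libraries 3, 4, 7 and 8, and at 0.423, 0.359, 0.142 and 0.185 in wild-type libraries 1, 2, 5 and 6. The genotypes overlapped. Reads of a kit that captures transcript ends need not cover the floxed part, so these UMIs do not check the deletion. Barcodes fell into 2 sets that cross genotype: libraries 1 to 4 (set A) and libraries 5 to 8 (set B). Pairs of libraries shared 0 to 5 cell barcodes within set A, 7 to 46 within set B, and 0 or 1 across sets.

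T-like cells held most UMIs of 6 of the 10 genes. Their share was 88.1% of the 278 Cd40lg UMIs of all kept cells, 83.5% of 4971 Icos UMIs, 80.0% of 2910 Tnfrsf4 UMIs, 70.3% of 669 Tnfsf11 UMIs and 69.1% of 3036 Tnfrsf18 UMIs. It was 64.5% of 214 Tnfrsf25 UMIs, 34.2% of 13138 Tnfrsf9 UMIs, 22.8% of 189 Tnfsf4 UMIs, 3.70% of 4786 Tnfsf9 UMIs and 3.04% of 4010 Cd40 UMIs. The 10437 malignant-like cells, which are many and deep, held 46.0% of Cd40, 44.8% of Tnfsf9, 32.2% of Tnfrsf9 and 26.5% of Tnfsf4 UMIs. Macrophage-like cells held 36.6% of Cd40 and 38.8% of Tnfsf9 UMIs, and dendritic-like cells held 31.7% of Tnfsf4 UMIs. These shares depend on how many cells of each class were captured, and on their depth, whereas the levels below are per 10000 UMIs of a cell.

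**Figure D1:**
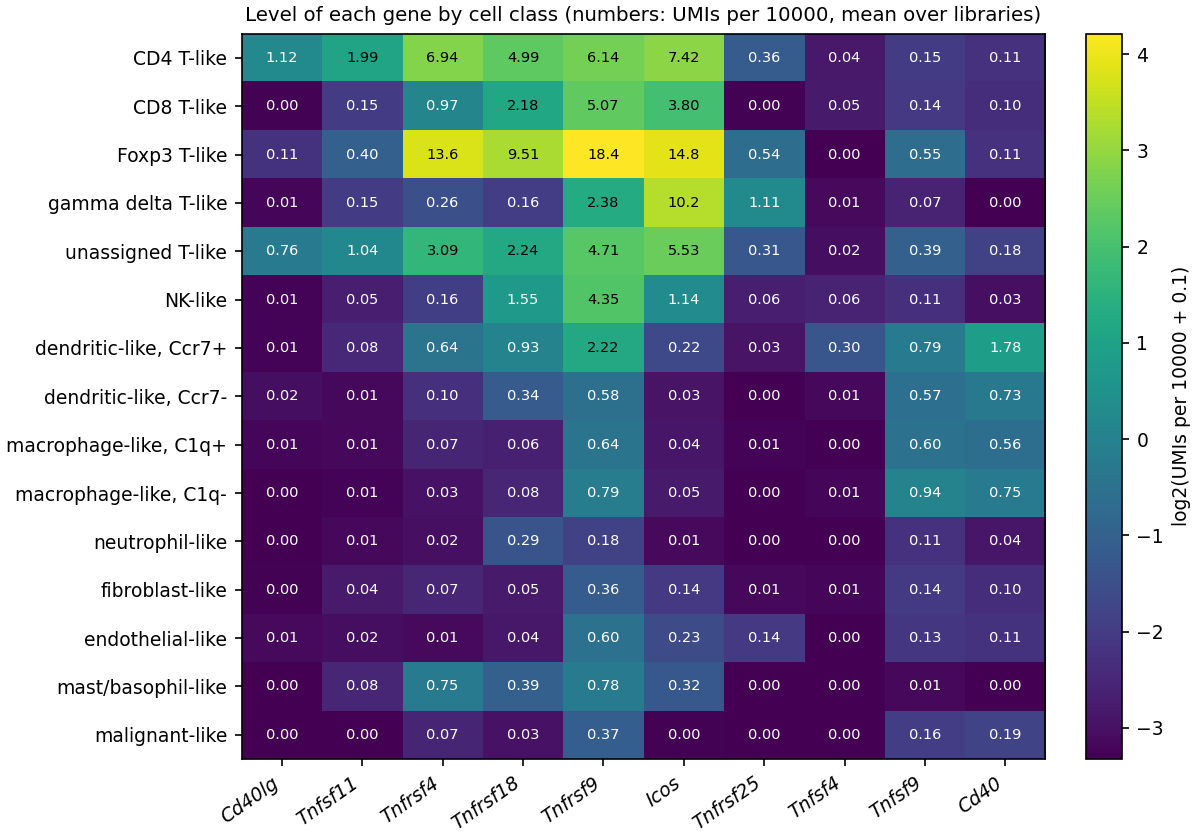
Level of each of the 10 genes (columns) in 15 cell classes (rows), averaged over each library that has 20 or more of those cells. Numbers are UMIs per 10000 and the color scale is log2(UMIs per 10000 + 0.1). Foxp3 T-like cells lead for Tnfrsf4, Tnfrsf18, Tnfrsf9 and Icos, CD4 T-like cells for Cd40lg and Tnfsf11, and Ccr7+ dendritic-like cells for Cd40 and Tnfsf4.

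Cd40lg (ENSMUSG00000031132, mm10 chromosome X, 57212143 to 57224042) was a gene of CD4 T-like cells without Foxp3. It averaged 1.12 ± 0.859 UMIs per 10000 there (SD over 7 libraries), followed by 0.755 ± 0.686 in T-like cells that carried none of the dividing genes. These 2 subsets did not differ beyond their spread. CD4 T-like cells held 70.2% of the Cd40lg UMIs of T-like cells, unassigned cells 27.8% and CD8 T-like cells 0.816%. A Cd40lg UMI was seen in 110 of 420 CD4 T-like cells (26.2%), but in 2 of 1066 CD8 T-like cells (0.188%).

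Tnfsf11 (ENSMUSG00000022015, chromosome 14, 78277445 to 78308043) had the same order of leading classes. It averaged 1.99 ± 0.707 UMIs per 10000 in CD4 T-like cells and 1.04 ± 0.831 in unassigned T-like cells, ranges that overlap within their spread. CD8 T-like cells stood at 0.149 ± 0.0816. Across the 15 class means, Pearson's r between the log2 levels of Tnfsf11 and Cd40lg was 0.936. These points share libraries and cells of 1 clustering, so the value is a description without a test. The RANK receptor gene Tnfrsf11a averaged 0.629 ± 0.324 UMIs per 10000 in Ccr7+ dendritic-like cells and 0.256 ± 0.0757 in C1q+ macrophage-like cells. Tnfrsf11b, which encodes the soluble decoy for RANK ligand, averaged 0.376 in fibroblast-like cells.

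Of the receptors carried by T-like cells, Tnfrsf4, Tnfrsf18, Tnfrsf9 and Tnfrsf25 lie on chromosome 4 and Icos on chromosome 1. Tnfrsf4 (ENSMUSG00000029075, 156013843 to 156016612) and Tnfrsf18 (ENSMUSG00000041954, 156026164 to 156028895) are neighbours on the plus strand, 9551 bases apart. Tnfrsf9 (ENSMUSG00000028965) spans 150914562 to 150946102 and Tnfrsf25 (ENSMUSG00000024793) spans 152115934 to 152120119. Promoter sequences of 300 bases, 250 before and 50 after the start, are from RefSeq (GRCm38.p6). They are shown for these 4 receptors because they are relatives on 1 chromosome, among them a pair of neighbours, whose levels over cell classes are compared below. RefSeq starts can differ from the GENCODE starts above. Capitals mark the NFAT core GGAAA, the AP-1 site TGANTCA and kappa B sites on either strand.
Tnfrsf4 promoter (chr4:156013445-156013744, plus strand): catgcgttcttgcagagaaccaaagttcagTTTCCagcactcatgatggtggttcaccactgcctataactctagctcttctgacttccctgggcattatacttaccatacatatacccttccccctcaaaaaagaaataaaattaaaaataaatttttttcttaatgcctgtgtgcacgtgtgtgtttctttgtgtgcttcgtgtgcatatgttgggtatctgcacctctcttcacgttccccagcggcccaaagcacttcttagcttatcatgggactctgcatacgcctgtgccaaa
Tnfrsf18 promoter (chr4:156026072-156026371, plus strand): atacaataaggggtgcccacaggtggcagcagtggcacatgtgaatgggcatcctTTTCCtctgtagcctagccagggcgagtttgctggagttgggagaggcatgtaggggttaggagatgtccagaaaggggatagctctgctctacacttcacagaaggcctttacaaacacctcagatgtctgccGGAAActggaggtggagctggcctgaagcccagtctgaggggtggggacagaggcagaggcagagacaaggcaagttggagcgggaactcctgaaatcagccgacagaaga
Tnfrsf9 promoter, second RefSeq start (chr4:150927749-150928048, plus strand): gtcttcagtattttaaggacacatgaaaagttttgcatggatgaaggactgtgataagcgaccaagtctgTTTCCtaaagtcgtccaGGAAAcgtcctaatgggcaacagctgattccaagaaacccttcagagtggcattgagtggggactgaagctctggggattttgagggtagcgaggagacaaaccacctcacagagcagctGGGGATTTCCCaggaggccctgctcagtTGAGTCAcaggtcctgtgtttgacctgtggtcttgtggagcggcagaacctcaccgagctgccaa
Tnfrsf25 promoter, first RefSeq start (chr4:152115684-152115983, plus strand): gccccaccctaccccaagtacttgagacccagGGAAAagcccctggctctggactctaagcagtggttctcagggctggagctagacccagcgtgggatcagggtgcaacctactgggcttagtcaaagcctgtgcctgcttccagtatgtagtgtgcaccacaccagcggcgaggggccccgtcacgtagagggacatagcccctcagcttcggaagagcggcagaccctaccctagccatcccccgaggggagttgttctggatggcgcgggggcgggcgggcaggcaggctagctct

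NFAT and NF-kB are factors that T cell receptor and costimulatory signals activate. The windows held 1 NFAT core match for Tnfrsf4, 2 for Tnfrsf18, 3 for the second start of Tnfrsf9 and 1 for the first start of Tnfrsf25. Of 32851 promoter windows of the same length, 61.3% held that core, so its presence sets none of these apart. The Tnfrsf9 window also held 1 AP-1 match, which 7.81% of windows held, and 2 kappa B matches, which 8.46% of windows held at least once. The 2 kappa B matches overlap each other and an NFAT core match. The other 3 windows held neither AP-1 nor kappa B matches, which says only that these letters are not in them. RefSeq windows for the other starts gave 2, 0 and 0 matches (NFAT core, AP-1, kappa B) for the first start of Tnfrsf9 and 3, 0 and 2 for the second start of Tnfrsf25. The window of Tnfsf11 held 1, 0 and 0. A match is a description of letters and not of binding. Windows matched 5 of the 10 genes, and Cd40lg, Cd40, Tnfsf4, Tnfsf9 and Icos had none in the table used.

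Tnfrsf4 and Tnfrsf18 had the same leading classes. Tnfrsf4 averaged 13.6 ± 1.07 UMIs per 10000 in Foxp3 T-like cells (n = 2 libraries, both from deleted hosts, with at least 20 such cells). It averaged 6.94 ± 1.48 in CD4 T-like cells, 3.09 ± 0.631 in unassigned T-like cells and 0.971 ± 0.488 in CD8 T-like cells, and each of these steps exceeded the sum of both SDs. A Tnfrsf4 UMI was present in 90.5% of Foxp3 T-like cells, 68.1% of CD4, 20.4% of CD8 and 3.65% of gamma delta T-like cells. Foxp3 T-like cells held 35.1% of the Tnfrsf4 UMIs of T-like cells with 126 cells, and CD4 T-like cells held 34.6% with 420.

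Tnfrsf18 averaged 9.51 ± 0.693 UMIs per 10000 in Foxp3 T-like cells, 4.99 ± 1.68 in CD4 and 2.18 ± 0.743 in CD8 T-like cells, and 1.55 ± 0.487 in NK-like cells. It therefore reached further into CD8 and NK-like cells, relative to its own CD4 level, than Tnfrsf4, which was 0.16 in NK-like cells. CD8 T-like and unassigned T-like cells (2.24 ± 0.456) did not differ beyond their spread. Over the 15 class means, the log2 levels of the neighbours had a Pearson's r of 0.898. Among member pairs only Cd40lg with Tnfsf11 was higher (0.936), and Tnfrsf9 with Icos came close (0.893). Both of those pairs lie on different chromosomes, so a value this high is not particular to neighbours. The gene of the GITR ligand, Tnfsf18, was near absent from the classes, with 7 UMIs in C1q+ macrophage-like cells, 4 in neutrophil-like cells, 2 in fibroblast-like cells and 1 each in Ccr7+ dendritic-like and C1q- macrophage-like cells.

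Tnfrsf9 was the most widely spread of the receptors. It averaged 18.4 ± 4.14 UMIs per 10000 in Foxp3 T-like cells. CD4 T-like cells (6.14 ± 2.09), CD8 T-like cells (5.07 ± 1.76), unassigned T-like cells (4.71 ± 2.35) and NK-like cells (4.35 ± 1.34) followed and did not differ beyond their spread. It was present in 93.7% of Foxp3 and 62.9% of CD8 T-like cells. Ccr7+ dendritic-like cells, a mature migratory kind, averaged 2.22 ± 1.24. Among endothelial-like cells 25.0% of 116 carried a Tnfrsf9 UMI, at 0.589 UMIs per 10000 over these cells.

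Tnfrsf25 had a different leading class. Gamma delta T-like cells averaged 1.11 ± 0.307 UMIs per 10000 over 5 libraries. Foxp3 T-like cells followed with 0.543 ± 0.607, at 0.114 and 0.973 in deleted libraries 4 and 8, which overlaps the gamma delta level within its spread. CD4 T-like cells (0.360 ± 0.214) and unassigned T-like cells (0.310 ± 0.0760) lay below the gamma delta level by more than the sum of both SDs. CD8 T-like cells held 2 of its 138 UMIs in T-like cells, whereas gamma delta cells held 51 (37.0%) and CD4 cells held 46 (33.3%). In libraries with at least 20 gamma delta T-like cells the level was 1.21, 0.871 and 0.945 in deleted libraries 3, 4 and 8, and 1.61 and 0.925 in wild-type libraries 5 and 6. Values of the 2 genotypes overlapped, and 2 wild-type libraries were too few for a test. The gene of its ligand TL1A, Tnfsf15, averaged 0.0464 ± 0.0560 in C1q+ macrophage-like cells and 0.0463 ± 0.0834 in Ccr7+ dendritic-like cells.

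Icos (ENSMUSG00000026009, chromosome 1, 60977927 to 61000320) averaged 14.8 ± 4.98 UMIs per 10000 in Foxp3, 10.2 ± 2.37 in gamma delta and 7.42 ± 1.97 in CD4 T-like cells. Unassigned T-like cells averaged 5.53 ± 0.916, CD8 T-like cells 3.80 ± 1.05 and NK-like cells 1.14 ± 0.512. The steps down to CD8 T-like cells each lay within the sum of both SDs, whereas NK-like cells lay below CD8 T-like cells by more than that sum. CD4 T-like cells, 2 places above CD8 T-like cells, also exceeded them by more than the sum of both SDs. Icosl, which encodes the ICOS ligand, averaged 0.295 ± 0.190 in neutrophil-like cells and 0.191 ± 0.166 in Ccr7+ dendritic-like cells, which did not differ beyond their spread.

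Cd40 (ENSMUSG00000017652, chromosome 2, 165055627 to 165072948) was led by Ccr7+ dendritic-like cells with 1.78 ± 0.370 UMIs per 10000 (n = 6 libraries). C1q- macrophage-like cells (0.754 ± 0.311), Ccr7- dendritic-like cells (0.732 ± 0.305) and C1q+ macrophage-like cells (0.560 ± 0.285) came next and did not differ beyond their spread. Malignant-like cells stood at 0.192 ± 0.120. Tnfsf4 (ENSMUSG00000026700, chromosome 1, 161395409 to 161418410) had the fewest UMIs of the group, and Ccr7+ dendritic-like cells led it with 0.303 ± 0.261. Tnfsf9 (ENSMUSG00000035678, chromosome 17, 57105325 to 57107757) was spread over myeloid cells, with 0.938 ± 0.469 in C1q- macrophage-like, 0.785 ± 0.262 in Ccr7+ dendritic-like, 0.602 ± 0.296 in C1q+ macrophage-like and 0.569 ± 0.293 in Ccr7- dendritic-like cells. These 4 classes overlapped.

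Genes outside the group with the most similar class profile were found by Pearson's r of log2 levels over the 15 class means, again as a description. Cd40lg was most like Tnfsf8 (r = 0.902), which encodes another TNF ligand of T cells, Lgals7 (0.898) and A630023P12Rik (0.885). A630023P12Rik (0.919), Lgals7 (0.903) and Fam213a (0.897) were closest to Tnfsf11. Tnfrsf4 was closest to Cd5 (0.913), Ctla4 (0.911) and Gm17767 (0.910), and Icos to Lat (0.977), Tox (0.976) and Cd247 (0.969), genes of the T cell receptor complex and of T cell differentiation among them. Closest to Tnfrsf9 were Dhx16 (0.947), Lrp10 (0.945) and Ctla4 (0.939). Tnfrsf18 was most like Tg (0.940), Gm17767 (0.929) and Gpbp1l1 (0.923), and Tnfrsf25 most like Nebl (0.951), Cpm (0.946) and Scrt1 (0.922). For the genes of presenting cells, the closest were Brk1 and Adap2 (0.944 each) and Cd74 (0.929) for Cd40, Gm47662 (0.921), Ndnf (0.904) and Adam11 (0.895) for Tnfsf4, and Stxbp3 (0.885), Slc29a3 (0.882) and Tbc1d9 (0.879) for Tnfsf9. Profiles of scarce genes rest on few UMIs, and their likeness is correspondingly uncertain.

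In T-like cells as a whole, Cd40lg and Tnfrsf25 were higher in tumors of deleted hosts than in tumors of wild-type hosts. Cd40lg stood at 0.675, 0.220, 1.35 and 1.12 UMIs per 10000 in deleted libraries 3, 4, 7 and 8, against 0, 0.0754, 0.0864 and 0.0983 in wild-type libraries 1, 2, 5 and 6. Each deleted library exceeded each wild-type library, as for 6.49% of genes. Deleted 4 was the lowest of its group, and wild type 1, which has no row, stood at 0. These levels rest on 36, 24, 34 and 131 UMIs in deleted libraries and on 0, 5, 6 and 9 in wild-type libraries. Group means were 0.841 ± 0.501 in deleted and 0.0650 ± 0.0443 in wild-type hosts (SD, n = 4 each). The difference was 2.35 ± 0.412 (SE) on the log2(UMIs per 10000 + 0.1) scale, a 5.10-fold ratio on that scale, with a limma adjusted p of 0.0327 over all 6760 genes tested. Within barcode set A the difference was 1.91 and within set B it was 2.79.

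Tnfrsf25, the DR3 receptor gene, had 0.369, 0.324, 0.543 and 0.396 UMIs per 10000 in deleted libraries 3, 4, 7 and 8, against 0.0467, 0.118, 0.183 and 0.125 in wild-type libraries 1, 2, 5 and 6. The groups did not overlap, as for 6.49% of genes in this direction. These levels rest on 20, 29, 13 and 45 UMIs in deleted libraries and on 2, 10, 7 and 12 in wild-type libraries. Means were 0.408 ± 0.0948 in deleted and 0.118 ± 0.0557 in wild-type hosts (SD, n = 4 each), a log2 difference of 1.24 ± 0.251 (limma adjusted p = 0.0457). Sets A and B gave 1.32 and 1.16.

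The limma test called 44 of 6760 genes in T-like cells (0.651%), of which 34 were higher in deleted hosts (0.503%). Among the 8 members that passed the filter on low values, 2 were called, Cd40lg and Tnfrsf25. Both passed the filter of a UMI in at least 5% of cells through the 4 deleted libraries and through 0 wild-type libraries. The filter thus favoured a difference in these members, and their count supports nothing about the group. Without the filter, over all genes, their adjusted p was 0.171 and 0.187. The Cd40lg call was lost when wild-type library 1, 2 or 6 or deleted library 3, 7 or 8 was left out (adjusted p 0.0690 to 0.104) and kept without the other 2. Without wild-type library 1, in which Cd40lg has no row, the difference was 2.13 (adjusted p = 0.104). The Tnfrsf25 call was kept only without wild-type library 5 (adjusted p = 0.0414) and lost without each of the other 7 (0.0830 to 0.130). The number of called genes was 0 to 10 without any 1 of the other 7 libraries and 45 without wild-type library 5.

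The other 6 tested members missed the threshold in T-like cells. Tnfrsf4 stood at 5.04, 3.27, 4.04 and 4.73 UMIs per 10000 in deleted libraries 3, 4, 7 and 8, against 2.75, 2.92, 2.17 and 2.17 in wild-type libraries 1, 2, 5 and 6. Again the groups did not overlap, as for 6.49% of all genes in the same direction, and the log2 difference of 0.741 ± 0.214 had a limma adjusted p of 0.145. With the barcode set as a term, which called 4.04% of genes, the adjusted p for Tnfrsf4 was 0.0314. Tnfsf11 averaged 1.06 ± 0.620 in deleted and 0.394 ± 0.123 in wild-type hosts, with an adjusted p of 0.195. Its difference was 0.113 in set A and 2.08 in set B, and the genotypes overlapped.

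Icos averaged 7.09 ± 1.53 UMIs per 10000 in T-like cells of deleted and 5.19 ± 1.05 of wild-type hosts (log2 difference 0.442 ± 0.235, adjusted p = 0.410). Tnfsf9 differed by 0.537 ± 0.332 (adjusted p = 0.490). Tnfrsf18 averaged 2.86 ± 0.135 in deleted and 3.08 ± 0.400 in wild-type hosts, with a log2 difference of -0.0943 ± 0.189 (adjusted p = 0.858). Tnfrsf9 averaged 6.03 ± 2.06 in deleted and 6.06 ± 1.18 in wild-type hosts (log2 difference -0.0419 ± 0.257, adjusted p = 0.951). The median log2 difference was 0.639 over the 8 members and 0.0957 over all tested genes. The 8 include Cd40lg and Tnfrsf25, whose difference the filter favoured, so this median supports nothing about the group. Cd40 and Tnfsf4 did not pass the filter in T-like cells.

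**Figure D2:**
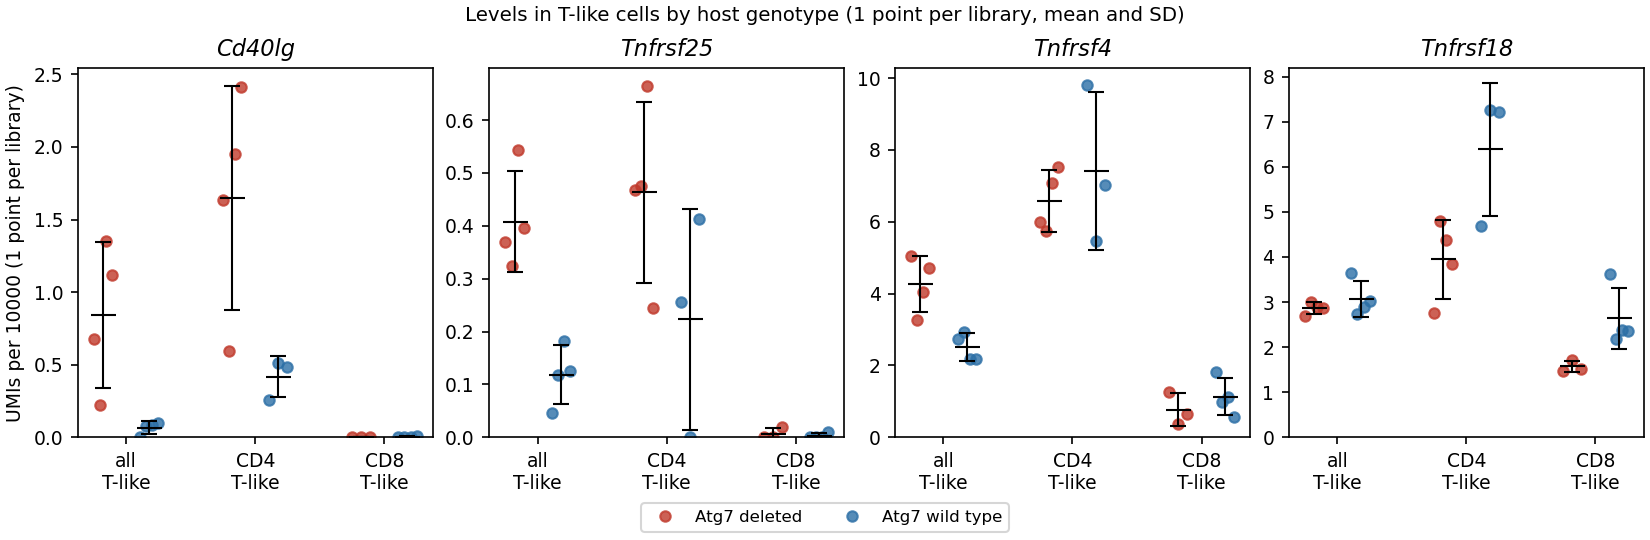
Levels of Cd40lg, Tnfrsf25, Tnfrsf4 and Tnfrsf18 (UMIs per 10000) in all T-like, CD4 T-like and CD8 T-like cells, 1 point per library with at least 20 cells, deleted hosts in red left of wild-type hosts in blue, bars mean and SD. Cd40lg of deleted libraries lies above wild type in all T-like and in CD4 T-like cells, and Tnfrsf18 of deleted libraries lies below wild type in CD8 T-like cells.

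The makeup of the T-like class differed between genotypes at the same time. The CD4 subset was 32.0% ± 4.32 of T-like cells in deleted and 8.67% ± 1.64 in wild-type libraries (SD, n = 4 each). CD8 T-like cells made up 23.7% ± 8.76 in deleted and 70.4% ± 4.89 in wild-type libraries. Foxp3 T-like cells were 8.38% ± 0.589 of T-like cells in deleted and 4.02% ± 1.16 in wild-type libraries, and gamma delta T-like cells were 13.0% ± 1.91 in deleted and 6.43% ± 1.47 in wild-type libraries. Different clusters held most of the class in each genotype: cluster 14, with Tnfrsf4 and Cd4 as leading genes, held 511 deleted and 188 wild-type cells, and cluster 9, led by Cd8b1, held 211 deleted and 730 wild-type cells. Subsets rich in Cd40lg, Tnfrsf25 and Tnfrsf4 therefore took a larger part of the T-like cells of deleted hosts. Sequencing depth of T-like cells was close, with a median of 3187 ± 1235 UMIs per cell in deleted and 3037 ± 1067 in wild-type libraries. Summed fibroblast markers in T-like cells ranged from 0.388 to 17.2 UMIs per 10000 in deleted and from 0.0283 to 0.396 in wild-type libraries, with all 7 higher in deleted means and none at 0. Summed NK markers ranged from 1.78 to 7.62 in deleted and from 5.43 to 15.9 in wild-type libraries. The part of these other cells in the member differences was not tested.

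**Figure D3:**
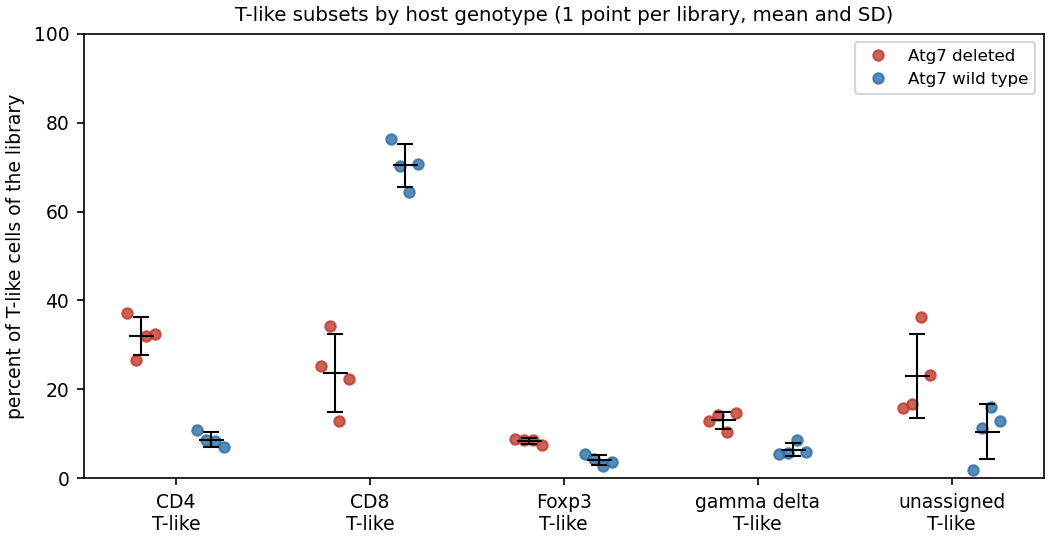
Share of T-like cells in each subset (percent, 1 point per library, deleted hosts in red left of wild-type hosts in blue, bars mean and SD). CD4, Foxp3 and gamma delta shares of the deleted libraries lie above, and CD8 shares below, those of the wild-type libraries.

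The members were therefore also compared with every library's T subsets weighted alike, by their mean share over the 8 libraries. This comparison was chosen after the shares were seen. With fixed shares Cd40lg averaged 0.512 ± 0.272 in deleted and 0.115 ± 0.0786 in wild-type hosts, a log2 difference of 1.48 ± 0.403 (limma adjusted p = 0.644). Tnfrsf25 averaged 0.295 ± 0.0640 in deleted and 0.180 ± 0.0636 in wild-type hosts (0.514 ± 0.269, adjusted p = 0.70). Neither was called, and 1 gene in all was. The direction of Tnfrsf4 turned: 3.08 ± 0.603 in deleted and 3.66 ± 0.600 in wild-type hosts (log2 difference -0.249, adjusted p = 0.821). Tnfrsf18 averaged 2.37 ± 0.293 in deleted and 3.47 ± 0.458 in wild-type hosts (-0.531 ± 0.213, adjusted p = 0.662). Some subsets held as few as 1 to 6 cells in wild-type library 1, which limits this comparison.

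**Figure D4:**
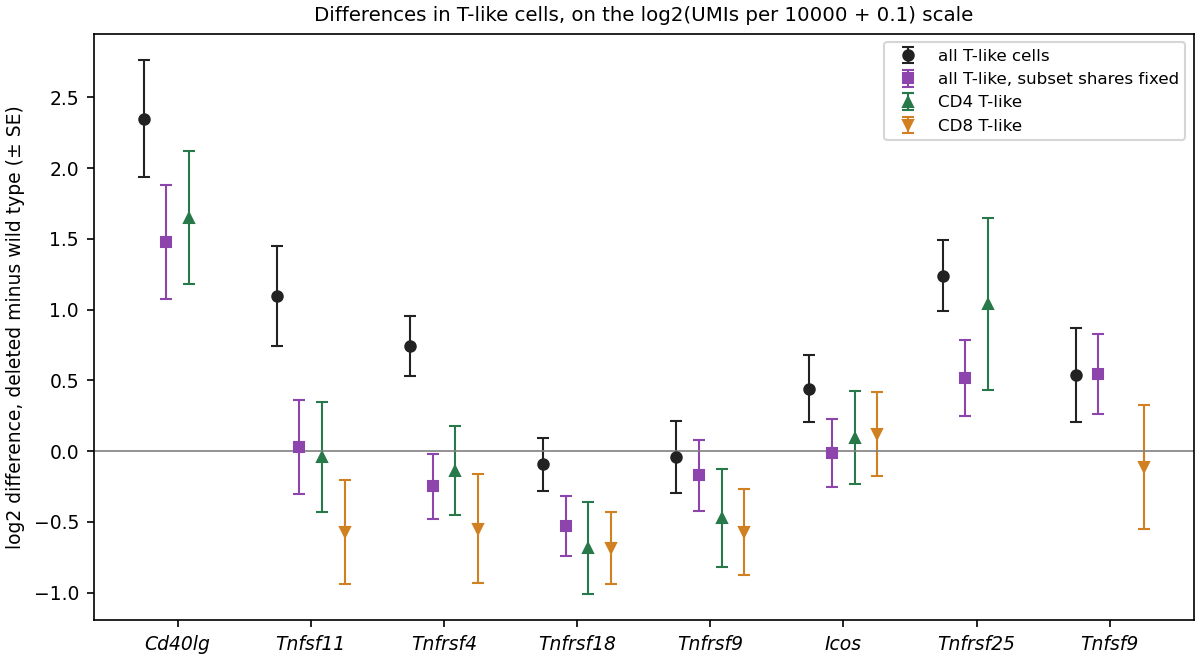
Log2 difference, deleted minus wild type (vertical axis, on the log2(UMIs per 10000 + 0.1) scale, bars SE), for members in all T-like cells, in all T-like cells with subset shares fixed, in CD4 T-like and in CD8 T-like cells. Cd40lg stays above 0 in each comparison that tested it, Tnfrsf25 is smaller with fixed shares, and Tnfrsf4 goes from above 0 to below 0.

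Within CD4 T-like cells, Cd40lg was again higher in deleted hosts in each library, without passing the threshold. Its level was 1.64, 0.598, 1.95 and 2.42 UMIs per 10000 in deleted libraries 3, 4, 7 and 8, against 0.256, 0.512 and 0.488 in wild-type libraries 2, 5 and 6. Wild-type library 1 had 6 such cells and was left out. The deleted values rest on 32, 17, 17 and 97 UMIs and the wild-type values on 2, 3 and 4, so the wild-type levels are imprecise. The groups did not overlap, although deleted 4 lay close to wild type 5. Means were 1.65 ± 0.771 in deleted (n = 4) and 0.418 ± 0.141 in wild-type hosts (n = 3), a log2 difference of 1.65 ± 0.471 with a 95% interval of 0.658 to 2.64 (limma adjusted p = 0.362). Within-set differences were 1.63 in A, with 1 wild-type library, and 1.92 in B. The share of all genes without overlap in this direction was 6.56%.

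Limma called 0 of 6327 genes in CD4 T-like cells (0%), with 592 at an unadjusted p under 0.05 (9.36%), and voom on summed UMIs called 0 with total scaling and 1 with median-ratio scaling. Of the other 6 tested members, Tnfrsf18 stood at 2.76, 4.80, 4.39 and 3.84 in deleted libraries 3, 4, 7 and 8, against 4.69, 7.26 and 7.22 in wild-type libraries 2, 5 and 6, which overlap (log2 difference -0.682 ± 0.325, adjusted p = 0.536). Tnfrsf4 averaged 6.58 ± 0.857 in deleted and 7.42 ± 2.20 in wild-type hosts (-0.139, adjusted p = 0.924). Tnfsf11 averaged 2.03 ± 0.962 in deleted and 1.94 ± 0.324 in wild-type hosts (-0.0424, adjusted p = 0.983), and its mean and log2 difference point in opposite directions. Tnfrsf25 averaged 0.463 ± 0.172 in deleted and 0.223 ± 0.208 in wild-type hosts (1.04 ± 0.606, adjusted p = 0.611). Tnfrsf9 differed by -0.475 (adjusted p = 0.668) and Icos by 0.0949 (adjusted p = 0.956). The median was -0.0424 over the 7 tested members and 0.178 over all genes, given as a description. Macrophage markers, summed, ranged from 10.7 to 21.9 UMIs per 10000 in CD4 T-like cells of deleted and from 9.90 to 13.3 of wild-type libraries, with all 13 markers higher in deleted means. Fibroblast markers ranged from 0.368 to 14.1 in deleted and from 0 to 0.997 in wild-type libraries. Median depth was 2852 ± 668 UMIs per CD4 T-like cell in deleted and 1988 ± 356 in wild-type libraries. The part of these markers and of depth in these results was not tested.

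Within CD8 T-like cells the member whose genotypes did not overlap was Tnfrsf18, which was lower in deleted hosts without passing the threshold. Its level was 1.48, 1.72 and 1.52 UMIs per 10000 in deleted libraries 3, 4 and 8, against 3.63, 2.18, 2.38 and 2.36 in wild-type libraries 1, 2, 5 and 6. Each deleted library lay below each wild-type library, as for 2.14% of genes, and wild type 1 stood apart at the top. Deleted library 7 had 15 CD8 T-like cells and was left out. Means were 1.57 ± 0.128 in deleted (n = 3) and 2.64 ± 0.668 in wild-type hosts (n = 4), with a log2 difference of -0.684 ± 0.256 (limma adjusted p = 0.643, unadjusted 0.0177). Sets A and B gave -0.783 and -0.608, and the alternative processing choices tried gave -0.936 to -0.277. No gene of 7670 was called (0%), 523 had an unadjusted p under 0.05 (6.82%), and voom called 0 with either scaling. The other tested members had adjusted p-values of 0.745 or more, with log2 differences of -0.573 for Tnfrsf9, -0.574 for Tnfsf11, -0.549 for Tnfrsf4, -0.115 for Tnfsf9, 0.124 for Icos and 0.129 for Cd40. The median of the 7 was -0.549, beside 0.0748 over all genes. Of the 7, Cd40 passed 5% of cells in 2 deleted and 1 wild-type libraries, and Tnfsf11 in 1 deleted and 2 wild-type libraries. The members were also chosen with earlier results of these data known, so this median supports nothing about the group. CD8 T-like cells were deeper in deleted libraries (median 5135 ± 1189 UMIs) than in wild-type libraries (3463 ± 1067). Summed macrophage markers in these cells ranged from 37.2 to 44.5 UMIs per 10000 in deleted and from 19.1 to 39.3 in wild-type libraries, with 10 of 13 higher in deleted means. Neutrophil markers ranged from 1.82 to 12.7 in deleted and from 0.762 to 7.78 in wild-type libraries (9 of 9 higher), and fibroblast markers from 0.331 to 12.2 in deleted and from 0.0440 to 0.383 in wild-type libraries (6 of 7 higher). No marker of these 3 lists was at 0, and their part in the Tnfrsf18 values was not tested.

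In NK-like cells Tnfrsf18 stood at 0.690, 1.54, 1.34 and 1.57 UMIs per 10000 in deleted libraries 3, 4, 7 and 8, against 2.32, 1.61 and 1.77 in wild-type libraries 2, 5 and 6. The groups did not overlap, as for 2.16% of genes, but deleted 8 and wild type 5 nearly met, and the log2 difference of -0.572 had a limma adjusted p of 0.901. Over the alternative processing choices tried, this difference ran from -0.681 to -0.0763. Of 6749 genes 4 were called (0.0593%), none of them a member. Tnfrsf9 (-0.536, adjusted p = 0.901) and Icos (-0.0131, adjusted p = 0.997) were the other members tested. Median UMIs per NK-like cell were 3989 ± 1462 in deleted and 1929 ± 519 in wild-type libraries.

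Dendritic-like cells, which formed a single cluster, also had less Tnfrsf18 in each deleted library, again without passing the threshold. Its level was 0.542, 0.143, 0.289 and 0.433 UMIs per 10000 in deleted libraries 3, 4, 7 and 8, against 1.27, 0.873 and 0.744 in wild-type libraries 2, 5 and 6. Every deleted library lay below every wild-type library, as for 3.37% of genes. Means were 0.352 ± 0.174 in deleted (n = 4) and 0.962 ± 0.273 in wild-type hosts (n = 3), a log2 difference of -1.29 ± 0.373 (limma adjusted p = 0.241, unadjusted 0.0031). Set A gave -1.79 with 1 wild-type library and set B gave -0.992. Over the alternative processing choices tried, the difference ran from -1.51 to -0.153. The levels rest on 61, 12, 8 and 29 UMIs in deleted and 13, 18 and 46 in wild-type libraries. The share of dendritic-like cells with a Tnfrsf18 UMI overlapped between genotypes. It was 28.93%, 15.25%, 11.54% and 17.19% in these deleted libraries, against 17.24%, 17.05% and 16.98% in wild-type libraries. In the Ccr7+ part the level was 0.727, 0.210 and 0.630 in deleted libraries 3, 4 and 8, against 1.63, 1.04 and 1.37 in wild-type libraries 2, 5 and 6. These did not overlap, but the share of all genes without overlap in this part is not given here. They rest on 45, 9 and 21 UMIs in deleted and 11, 14 and 42 in wild-type libraries. The share of Ccr7+ cells with a Tnfrsf18 UMI overlapped, at 32.99%, 24.14% and 21.92% in deleted against 25.0%, 22.0% and 28.3% in wild-type libraries.

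Icos in dendritic-like cells was 0.372, 0.137, 0.142 and 0.155 UMIs per 10000 in deleted libraries 3, 4, 7 and 8, against 0.0115, 0.0895 and 0.0544 in wild-type libraries 2, 5 and 6. No values overlapped, as for 5.77% of genes, deleted 3 stood apart, and the log2 difference of 0.959 ± 0.363 had a limma adjusted p of 0.426. The deleted values rest on 54, 10, 4 and 27 UMIs and the wild-type values on 1, 4 and 4. Counts this low cannot settle whether the genotypes overlap. Sets A and B gave 1.59 and 0.538. Icos passed the filter through 3 deleted and 0 wild-type libraries. Summed T cell markers in these cells ranged from 1.15 to 2.42 in deleted and from 0.760 to 1.75 in wild-type libraries, with 7 of 10 higher in deleted means and none at 0, and their part in the Icos values was not tested. Median depth was 6615 ± 2483 UMIs per dendritic-like cell in deleted and 3566 ± 730 in wild-type libraries.

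Cd40, which encodes the receptor of CD40 ligand, showed no such separation of the genotypes. Its level in dendritic-like cells was 1.01, 1.36, 1.90 and 1.58 UMIs per 10000 in deleted libraries 3, 4, 7 and 8, against 1.23, 1.16 and 1.54 in wild-type libraries 2, 5 and 6. The genotypes overlapped, with a log2 difference of 0.127 (adjusted p = 0.930). Tnfsf9 differed by 0.0343 (adjusted p = 0.989), Tnfrsf4 by -0.219 (0.904) and Tnfrsf9 by -0.284 (0.875). Limma called 12 of 7471 genes in this class (0.161%), none a member, and the median was -0.0921 over the 6 tested members beside 0.0860 over all genes. Icos, among these 6, passed the filter through deleted libraries only. Tnfsf4 missed the filter. In Ccr7+ dendritic-like cells it was 0.159, 0.160 and 0.786 in deleted libraries 3, 4 and 8, against 0.0726, 0.246 and 0.392 in wild-type libraries 2, 5 and 6, which overlap.

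Macrophage-like cells were compared by cluster, because a leading gene of cluster 8 marks platelets and because clusters 7 and 11 came almost wholly from deleted library 3 (1039 and 954 cells). Clusters 6, led by Ccl24 and Ms4a4c, and 8, led by Fabp5 and Pf4, held at least 20 cells in all 8 libraries. In cluster 6, Cd40 was 0.237, 0.744, 0.947 and 0.894 UMIs per 10000 in deleted libraries 3, 4, 7 and 8, against 0.598, 0.656, 1.34 and 1.51 in wild-type libraries 1, 2, 5 and 6. Values overlapped (0.705 ± 0.324 in deleted and 1.03 ± 0.466 in wild-type hosts, log2 difference -0.512 ± 0.403, limma adjusted p = 0.764), although within each barcode set the deleted mean was the lower (-0.447 in A, -0.577 in B). Tnfsf9 averaged 0.730 ± 0.350 in deleted and 0.942 ± 0.266 in wild-type hosts (-0.423 ± 0.361, adjusted p = 0.782). Tnfrsf9 differed by -0.0976 ± 0.656 (adjusted p = 0.983). In cluster 8, Cd40 averaged 0.639 ± 0.261 in deleted and 0.716 ± 0.213 in wild-type hosts (-0.176 ± 0.386, adjusted p = 0.967), and no other member passed the filter. Limma called 0 of 5299 genes in cluster 6 (0%), with 471 at an unadjusted p under 0.05 (8.89%), and 5 of 3258 in cluster 8 (0.153%), none a member.

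**Figure D5:**
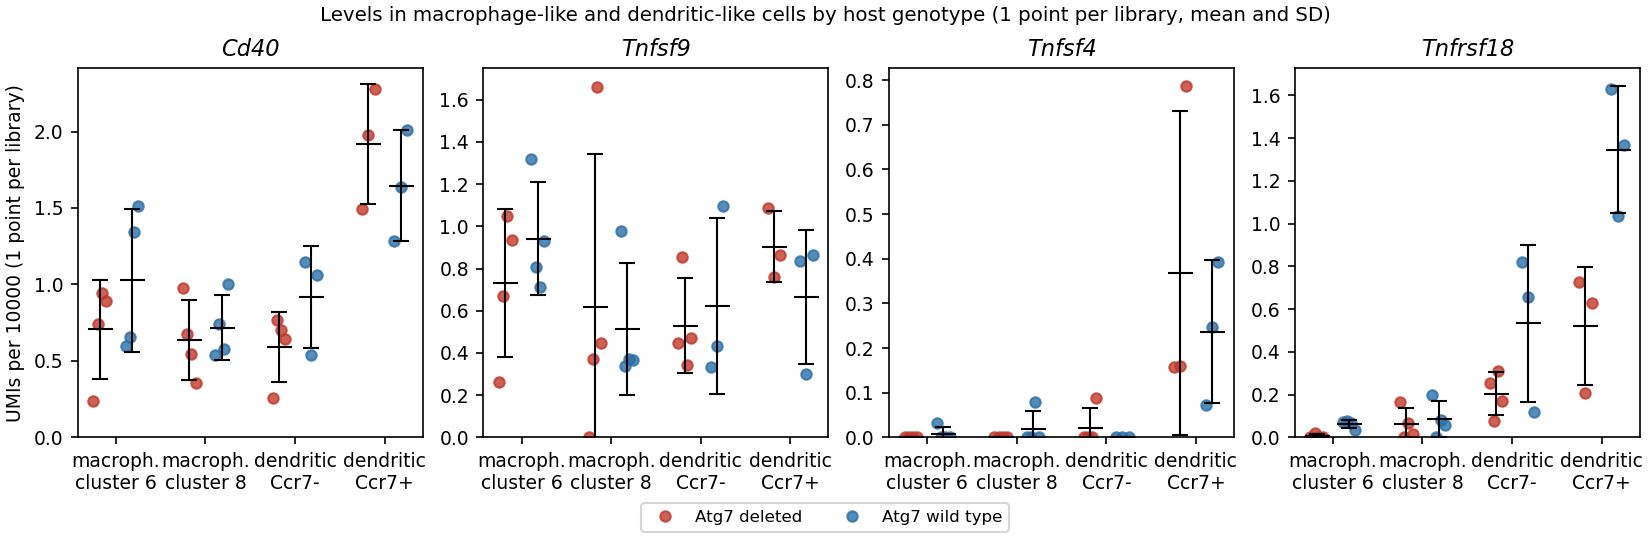
Levels of Cd40, Tnfsf9, Tnfsf4 and Tnfrsf18 (UMIs per 10000) in macrophage-like clusters 6 and 8 and in Ccr7- and Ccr7+ dendritic-like cells, 1 point per library with at least 20 cells, deleted hosts in red left of wild-type hosts in blue, bars mean and SD. Cd40 of the genotypes overlaps in each class. Tnfrsf18 of deleted libraries lies below wild type in Ccr7+ dendritic-like cells, on few UMIs and with overlapping shares of cells with a UMI.

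The share of T-like cells with a UMI was taken after each cell was thinned to 1000 UMIs. It was higher in every deleted library than in any wild-type library for Cd40lg, Tnfrsf25, Tnfrsf4 and Icos. How many of all genes separate in this way is not given here, so the number of such members supports nothing about the group. For Tnfrsf25 the genotypes nearly met, at 1.89% in deleted library 3 (3 of 159 cells) and 1.79% in wild-type library 5 (5 of 279 cells). For Cd40lg it was 6.27% ± 3.59 in deleted and 0.652% ± 0.475 in wild-type libraries (SD, n = 4 each), and without thinning it was 14.0% ± 4.49 in deleted and 1.26% ± 0.848 in wild-type libraries. In malignant-like cells, which should lack Cd40lg, the share without thinning was 0.171% in deleted and 0.0119% in wild-type libraries, at median depths of 5878 ± 6303 UMIs in deleted and 14160 ± 3117 in wild-type libraries. These 2 values rest on 1 UMI in deleted library 4 and 2 UMIs in wild-type library 5, too few to compare the genotypes. Tnfrsf25 was seen in 2.48% ± 0.400 of thinned cells in deleted and 1.10% ± 0.771 in wild-type libraries, and Tnfrsf4 in 23.6% ± 3.88 in deleted and 14.5% ± 3.17 in wild-type libraries. The Tnfrsf4 share in malignant-like cells was 0.240% ± 0.481 in deleted and 0.0632% in wild-type libraries. Icos was seen in 42.14%, 46.05%, 36.94% and 39.25% of thinned T-like cells in deleted libraries 3, 4, 7 and 8. Wild-type libraries 1, 2, 5 and 6 gave 34.55%, 34.97%, 28.32% and 29.36%. Tnfsf11 was seen in 3.145%, 5.263%, 9.009% and 8.768% in the same deleted libraries. Its wild-type shares of 3.636%, 3.681%, 2.151% and 2.064% overlap these. Tnfrsf9, by contrast, was seen in 34.2% ± 9.75 of T-like cells in deleted and 40.2% ± 6.44 in wild-type libraries, and Tnfrsf18 in 20.6% ± 1.22 in deleted and 23.2% ± 4.08 in wild-type libraries. Thinning kept 977 T-like cells of deleted and 1096 of wild-type libraries and left out 49 of deleted and 85 of wild-type libraries. These shares are given as a description. The T subset shares, which differ between genotypes, were not fixed here.

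Among related genes, the list of activated helper T genes held 3 called genes in T-like cells, and the other 5 lists held none. Of its 17 genes 10 were tested and Nr4a1, Maf and Rora rose, beside 0.503% of all genes called higher. All 10 differences were above 0, as were 60.1% of all genes, and their median was 1.09 beside 0.0957 over all genes. Nr4a1, an early gene of T cell receptor signalling, averaged 3.56 ± 1.03 UMIs per 10000 in deleted and 1.18 ± 0.262 in wild-type hosts (log2 difference 1.495 ± 0.244, limma adjusted p = 0.0294). Maf and Rora encode transcription factors of helper T cells, and their differences were 1.63 ± 0.270 (adjusted p = 0.0294) and 1.21 ± 0.218 (adjusted p = 0.0327). As for Cd40lg, the subset shares move with these values. Each of the 3 calls was lost on leaving out some libraries (adjusted p up to 0.104 for Nr4a1 and Maf and 0.130 for Rora). With fixed subset shares their differences were 0.806, 0.839 and 0.530 for Nr4a1, Maf and Rora (adjusted p 0.644, 0.644 and 0.664). In CD4 T-like cells 11 were tested and 0 called, with a median of 1.19 beside 0.178 over all genes, and all 11 were above 0, as were 61.7% of all genes. Those with the lowest p there were Nr4a1 (1.59), Cd44 (1.23), Gata3 (1.69) and Il13 (2.61), with adjusted p-values of 0.355 to 0.373.

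Of the 24 genes for TRAF adaptors and NF-kB, which carry signals of these receptors, all were tested and 21 differences were above 0, as were 60.1% of all tested genes, with a median of 0.394 beside 0.0957 over all genes. None was called, beside 0.651% of all genes. Birc3, an inhibitor of cell death bound by TRAFs, differed by 0.922 (adjusted p = 0.0586), Nfkb1 by 0.940 (0.125), the NF-kB inhibitor gene Nfkbia by 0.787 (0.145) and Tnfaip3, which restrains NF-kB, by 1.01 (0.160). The 5 tested of 13 other TNF ligand genes had a median of 0.132, and Tnfsf8 had the lowest p (1.33, adjusted p = 0.211). The 5 tested of 23 other receptor genes had a median of -0.104. Of the CD28 and B7 genes 3 of 5 were tested, with a median of 0.590, and Cd28 differed by 0.70 (adjusted p = 0.198).

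Genes that CD40 signals are known to raise in dendritic cells were read beside Cd40. Of 12 listed genes 11 were tested in dendritic-like cells and 1 rose, Ccl17, a chemokine that draws CCR4-bearing T cells. It averaged 2.31 ± 1.24 UMIs per 10000 in deleted (n = 4) and 0.343 ± 0.0700 in wild-type hosts (n = 3), a log2 difference of 2.33 ± 0.358 (limma adjusted p = 0.0121), and was not called without wild-type library 2 (0.0583) or 6 (0.104), with the deposited logs (0.187), with voom (0.229 and 0.222) or without the filter (0.133). The median of the 11 was 0.294 beside 0.0860 over all genes, and 8 were above 0, as were 57.6% of all genes. Ccl22, a chemokine of the same receptor, differed by 1.17 (adjusted p = 0.345) and Il12b, the shared subunit of interleukins 12 and 23, by 1.39 (0.453). Cd86 differed by -0.532 (0.596). Summed fibroblast markers ranged from 0.132 to 13.3 in dendritic-like cells of deleted and from 0 to 0.323 of wild-type libraries, and their part was not tested.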

How the data were processed

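Single-cell RNA was measured in 8 tumors with a 10x Genomics kit. Per the submitters' processing notes, the authors ran Cell Ranger 2.1 and Seurat 3.0 on mm10, and anything further is not given in the sources used here. Deposited was a natural log per gene and cell, ln(1 + UMIs per 10000), a unit read from the values themselves, and 100% of values gave whole UMIs within 0.01 UMI. Since these are no raw counts, a test for log values, also planned, took the place of the count test, after the logs had been undone.

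Of 29496 deposited cells, 919 were removed for fewer than 200 genes or more than 10% mitochondrial UMIs, and 104 as called doublets. The caller marked 0.387% of cells at an expected rate of 5%, too few to have worked, so doublets remain. Cells were clustered in scanpy 1.11.5 (2000 variable genes without the members and related lists, 30 components, 15 neighbors, Leiden resolution 1 with igraph 0.11.9, seed 1). A cluster was named from at least 3 markers. Cluster 19 (97 cells) stayed unnamed. Clusters 15 (360 T-like cells with macrophage markers) and 20 (89 malignant-like cells with T cell genes) carried markers of 2 classes.

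The log2 of the mean level + 0.1 per class and library was compared with limma 3.58.1 in R 4.3.3 (trend, two-sided), with Benjamini-Hochberg adjustment over all genes of the class and a threshold of 0.05. Libraries needed 20 cells, each genotype 3 libraries, and a gene a UMI in 5% of cells in as many libraries as the smaller group held. Differences on this scale understate folds of low genes. The fit was also run on simulated libraries with known changes, whose outcome is not given here and supports none of the results. UMI counts of a library limit precision, and shares and levels carry counting error besides the SD. Regulatory and gamma delta cells had too few libraries for a test. Macrophage-like cells were compared by cluster number, a choice made after seeing the data. Alternatives were other pseudocounts, the deposited logs, voom on summed UMIs, no filter, a barcode set term, resolution 0.5, other cell filters, and each library left out. Named genes were the 10 members, every called gene of 6 lists, otherwise up to 4 of lowest p in a list, and the 3 most alike genes. The members and lists were chosen with earlier results of these data known. Promoters were matched by symbol to RefSeq.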

Additional observations from a re-analysis of the deposited data

Results flagged for a closer look

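In 47 groups of 4 libraries, the highest or lowest library was set against the rest, by whether its gap to the nearest exceeded 0.829 of the group's range; chance alone flags about 1 group in 20, and 2 were flagged. Deleted library 3 stood apart for Icos in dendritic-like cells, at 0.372 UMIs per 10000. Wild-type library 1 stood apart for Tnfrsf18 in CD8 T-like cells, at 3.63 UMIs per 10000 over 42 cells.

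Signal above the limit of 3 counts was also seen in the 97 cells of the unnamed cluster, which entered no comparison. Cd40 stood at 0.249 UMIs per 10000 there (8 UMIs) and Tnfrsf18 at 0.154 (9 UMIs), where a count of 0 would allow up to 0.0553.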

How the results depend on the processing

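No paired analysis was possible because libraries of the 2 genotypes share no replicate number. Of 939 alternatives tried over 56 results, 784 kept the direction and the side of the threshold or stayed within 1.5 times a count. Most of these, 696 of 780 alternatives, belong to 47 results outside the main ones, so the pooled number says little about the called differences. In T-like cells the Cd40lg call was kept in 10 of 20 alternatives and the Tnfrsf25 call in 8 of 20. The cause of the changes was not tested. Choices added after seeing the data were leaving out clusters 15 and 20 and fixing the T subset shares.

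Genes changed in T-like cells (44) numbered 0 without the filter, 273 with the barcode set term, 82 without clusters 15 and 20, 1 with fixed shares and 0 to 45 without 1 library. The Cd40lg difference in T-like cells (2.35) lost its call with voom (3.34, adjusted p = 0.134; median-ratio scaling 3.20, 0.177), without the filter (2.35, 0.171) and with fixed shares (1.48, 0.644), and ran from 2.07 to 2.80 without 1 library. Tnfrsf25 (1.24) lost it at a pseudocount of 0.02 (1.71, 0.0669), with voom (1.67, 0.0531; 1.52, 0.0858), without the filter (1.24, 0.187) and with fixed shares (0.514, 0.70), and ran from 1.06 to 1.38.

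In CD4 T-like cells (0 genes), 2 were called at a pseudocount of 0.5, with the set term or where a Cd3 UMI was required, 1 with median-ratio voom or without the mixed clusters, and 0 to 1 without 1 library. In CD8 T-like cells (0) the set term called 27, resolution 0.5 called 1, and leaving out 1 library 0 to 13. NK-like cells (4) had 2 with the deposited logs or voom, 13 with the set term and 3 to 8 without 1 library. Dendritic-like cells (12) had 2 with the deposited logs, 1 with voom, 0 without the filter, 43 with the set term, 20 at resolution 0.5 and 0 to 22 without 1 library. Macrophage-like cluster 6 (0) had 29 with the set term and 0 to 1 without 1 library, and cluster 8 (5) had 0 with the deposited logs or without the filter, 10 with the set term and 0 to 5 without 1 library.

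Directions that turned were, with fixed shares, Tnfrsf4 (-0.249) and Icos (-0.0128) in T-like cells. In CD4 T-like cells, Tnfsf11 turned with the set term (0.0502), resolution 0.5 (0.0640) and without mixed clusters (0.0563), and Icos with median-ratio voom (-0.0587). In CD8 T-like cells, Tnfsf9 turned with the deposited logs (0.00118) and the set term (0.0396), and Icos at resolution 0.5 (-0.0381). Icos in NK-like cells turned at a pseudocount of 0.02 (0.0082) and with the deposited logs (0.139), Tnfrsf4 in dendritic-like cells with the deposited logs (0.0238) and Tnfsf9 there with the set term (-0.0376). Tnfrsf9 in cluster 6 turned at a pseudocount of 0.5 (0.108), with the deposited logs (0.0474) and with voom (0.282 and 0.150). Without 1 library, ranges crossing 0 were -0.251 to 0.098 for Tnfrsf9 in T-like cells; -0.289 to 0.196, -0.338 to 0.0788 and -0.0868 to 0.251 for Tnfsf11, Tnfrsf4 and Icos in CD4 T-like cells; -0.231 to 0.497, -0.509 to 0.272 and -0.0559 to 0.375 for Cd40, Tnfsf9 and Icos in CD8 T-like cells. They were -0.628 to 0.336 for Icos in NK-like cells, -0.00231 to 0.279, -0.479 to 0.0802, -0.787 to 0.133 and -0.278 to 0.342 for Cd40, Tnfrsf4, Tnfrsf9 and Tnfsf9 in dendritic-like cells, -0.790 to 0.558 for Tnfrsf9 in cluster 6 and -0.381 to 0.0305 for Cd40 in cluster 8. Shares of T-like cells with a UMI turned for Cd40 at resolution 0.5 (-0.152 percentage points) and without cells over 4500 genes (-0.140), for Tnfsf4 without those cells (0.209), for Tnfrsf9 at 500 UMIs (0.00352) and for Tnfsf9 without 1 library (-0.103 to 0.774).

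Depth limits scarce members most: Tnfsf4 and Tnfrsf25 rest on 189 and 214 UMIs in all kept cells, and a value of 0 in a small subset is not absence.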
